A study of Mus musculus with 3 samples.

Results

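A set of 6 transcription factors of the endothelium were followed here through pressure overload of the mouse heart, namely the SoxF genes Sox7, Sox17 and Sox18, the Krüppel-like factors Klf2 and Klf4, and the ETS factor Erg. They were 6 of the 27998 genes counted, and were picked by name as factors of endothelial cells (ECs) after a higher Sox18 level at 2 weeks had been seen in these same libraries. The EC values of Sox18 at 2 weeks against the healthy heart are therefore a description and carry no weight as evidence, and neither do its values by EC subtype or cluster, which are pieces of the same counts. The choice did not rest on the values of Sox7 and Sox17, the paralogs of Sox18, or on the levels in the other cell classes.

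The cells were non-cardiomyocytes from the ventricles of wild-type mice of the C57BL/6J JCL strain, and per the study's methods the animals were male and 8 weeks old at surgery. Transverse aortic constriction (TAC), a ligature around the aortic arch that overloads the left ventricle, was followed by 2 weeks (adaptive hypertrophy) or 12 weeks (heart failure), and the healthy library (0 weeks) carries the treatment label Control. Whether those control animals had a sham operation, and how many hearts entered a library, is not given in the sources used here. All cells of all groups were freed with collagenase and DNase at 38 °C and captured in droplets, with 1 library per phase.

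Because 1 library stands for each phase, phase and library cannot be told apart and no test between phases was possible. A level is given as CPM, the unique molecular identifiers (UMIs) of a gene summed over a group of cells and divided by all UMIs of those cells, times 1000000. Intervals are exact 95% intervals that cover counting error only, and they say nothing of the spread between hearts. After cells with fewer than 200 genes were left out, 3892, 2231 and 792 cells remained at 0, 2 and 12 weeks. Of these 1107, 1777 and 308 were ECs by the summed UMIs of 11 marker genes, with 3253009, 3386314 and 484534 UMIs. The median EC held 2203, 1495 and 1315 UMIs, so the healthy ECs were the most deeply read and the 12-week library the least. In the ECs the 11 endothelial markers summed to 7568, 9401 and 9787 CPM, with none of them at 0, while the 10 fibroblast (FB) markers summed to 447, 99.8 and 541 CPM, the 11 mural markers to 235, 67.3 and 138 CPM and the 16 blood cell markers to 235, 47.5 and 316 CPM. Cardiomyocyte transcripts moved with phase, since 29.2%, 13.5% and 2.60% of ECs had 3 or more UMIs of 8 cardiomyocyte markers. With those ECs left out, the ratio of Sox18 to its healthy level given below became 5.00 at 2 weeks and 6.91 at 12 weeks, that of Sox7 1.53 and 1.60, and that of Klf2 0.726 and 0.716.

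Sox7, Sox17 and Sox18 form the SoxF group of high-mobility-group proteins, which share a DNA-binding domain, can stand in for one another in vessels, and are required for arterial and lymphatic development. Klf2 and Klf4 are zinc-finger factors that laminar blood flow induces in ECs, where they favor a quiescent, anti-inflammatory and anticoagulant state. Erg is an ETS-domain factor that ECs make throughout life and that maintains endothelial genes such as Cdh5.

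Sox18 was much higher in the ECs of both overloaded hearts, whereas its paralogs were not raised to a like degree. In ECs Sox18, a gene of chromosome 2 (181669836 to 181671640, minus strand, GRCm38), numbered 197 UMIs in the healthy heart (60.6 CPM, 52.4 to 69.6), 1091 UMIs at 2 weeks (322 CPM, 303 to 342) and 226 UMIs at 12 weeks (466 CPM, 408 to 531). The healthy library was the low one, and the level was 5.32 times (4.57 to 6.22) the healthy level at 2 weeks and 7.70 times (6.33 to 9.37) at 12 weeks. The 12-week level was in turn 1.45 times (1.25 to 1.67) that at 2 weeks. Both comparisons with the healthy heart share the healthy library, so they are not independent of each other.

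Sox7 numbered 362 UMIs in healthy ECs (111 CPM, 100.1 to 123), 541 UMIs at 2 weeks (160 CPM, 147 to 174) and 76 UMIs at 12 weeks (157 CPM, 124 to 196). The healthy ECs were again the lowest, but the ratios were 1.44 (1.25 to 1.64) and 1.41 (1.09 to 1.81), and between 12 and 2 weeks the ratio was 0.982. Sox17 stood at 284 CPM (266 to 303, 923 UMIs), 278 CPM (261 to 297, 942 UMIs) and 400 CPM (346 to 461, 194 UMIs). Its healthy and 2-week levels overlapped within counting error, at a ratio of 0.980 (0.894 to 1.07), and the 12-week level alone was higher, at 1.41 times (1.20 to 1.65) the healthy level. The interval of Sox18 at 2 weeks overlapped neither that of Sox7 nor that of Sox17. This is a description only, because the genes were picked after the higher Sox18 level at 2 weeks had been seen.

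A ratio of 1.5 in either direction was used to count genes. At 2 weeks against 0 weeks, 1 of the 6 factors (Sox18) was at least 1.5-fold higher in ECs, beside 13.2% of the 10383 genes with 20 or more UMIs, and 0 were at least 1.5-fold lower, beside 13.7%. At 12 weeks against 0 weeks, 1 was higher (Sox18) and 1 was lower (Erg), beside 22.2% and 16.5% of 9373 genes. At 12 against 2 weeks, 0 were higher and 1 (Erg) was lower, beside 20.3% and 14.7% of 9348 genes. Counted from the highest ratio at 2 weeks, Sox18 held rank 29 of 10383, Sox7 rank 1628, Sox17 rank 5570, Erg rank 6984, Klf2 rank 8135 and Klf4 rank 8565. The median ratio of all genes was 1.01 at 2 weeks and 1.07 at 12 weeks.

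**Figure D1:**
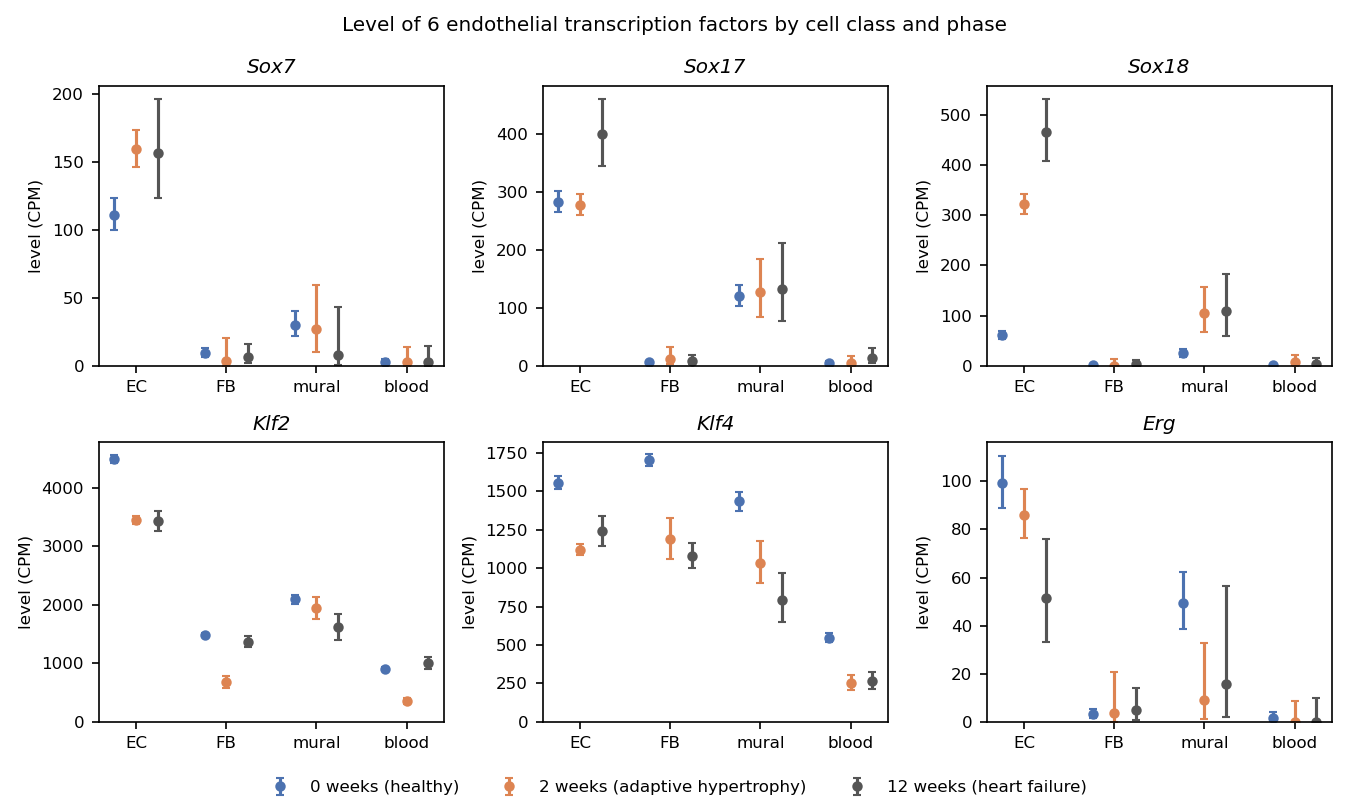
Levels of the 6 factors (CPM, linear axis from 0, a separate scale for each gene) in ECs, FBs, mural cells and blood cells at 0, 2 and 12 weeks of TAC. Points are levels of 1 library each and bars are exact 95% counting intervals. Sox18 in ECs climbs from 60.6 to 322 and 466 CPM, whereas Klf2 and Klf4 are highest in the healthy library in ECs.

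More ECs carried Sox18 as well as more of it. A Sox18 UMI was seen in 14.5% of healthy ECs, 38.2% at 2 weeks and 38.0% at 12 weeks, although the healthy ECs were read more deeply. After every EC was thinned to 1000 UMIs, which left out 0, 473 and 107 shallower ECs, the shares were 5.96%, 24.8% and 30.8%. Blood cells, which are not known to use Sox18, gave a UMI in 0.417%, 1.53% and 0.559% of cells before thinning, so the share in ECs was far above background in each library. ECs with 3 or more Sox18 UMIs numbered 6, 81 and 29, and the highest count in 1 cell was 3, 9 and 8. The 10 ECs with the most Sox18 UMIs held 13.2%, 5.96% and 23.5% of them, so the higher levels did not rest on a handful of cells at 2 weeks.

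Thinned in the same way, Sox7 was seen in 9.12%, 14.2% and 16.9% of ECs and Sox17 in 20.2%, 19.0% and 22.4%. Unthinned, the same shares were 23.1%, 23.5% and 21.1% for Sox7 and 38.8%, 30.1% and 30.8% for Sox17, and median depth was likewise highest in the healthy library. Only for Sox18 among these 3 genes were the thinned and unthinned shares both higher at 2 and at 12 weeks than in the healthy heart.

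Sox18 at 2 weeks was also compared within ranges of depth and of mitochondrial share, since both moved with phase. Its ratio was 4.91 (3.69 to 6.64) among ECs of 1000 to under 2000 UMIs, 4.76 (3.72 to 6.16) among those of 2000 to under 4000 UMIs and 5.23 (3.92 to 7.04) among those of 4000 or more. It was 5.56 (4.73 to 6.56) in ECs with under 5% mitochondrial UMIs and 3.12 in the remainder. The ratio was thus above 3 in each of these ranges.

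A shift in other genes accompanied that of Sox18 and was not limited to ECs. Ribosomal protein pseudogenes, copies of ribosomal protein genes that are named with the suffix -ps, were looked at after the values had been seen. In ECs at 2 weeks 12 of the 12 with enough UMIs were at least 1.5-fold higher than in the healthy library, with ratios from 2.26 to 9.10 and a median of 3.73, and the same held for 10 of 10 in FBs (median 2.96), 9 of 9 in mural cells (median 3.09) and 10 of 10 in blood cells (median 2.77). At 12 weeks 11 of 11 were higher in ECs, with ratios from 1.93 to 14.3. The ribosomal protein genes themselves had a median ratio of 1.16 in ECs at 2 weeks, with 6 of 77 at least 1.5-fold higher. Of the 28 genes that ranked above Sox18 in ECs at 2 weeks, 10 were predicted genes with a Gm number and 3 carried the suffix -ps. The healthy library therefore stood apart from both TAC libraries in these transcripts in all 4 classes, and the part of that difference in the Sox18 ratio was not tested. Between the 2 TAC libraries, at 12 against 2 weeks, the median ratio of these pseudogenes in ECs was 1.02. Their ratios ran from 0.768 to 5.17, with 3 of 12 at least 1.5-fold higher and 0 lower. That of Sox18 was 1.45 (1.25 to 1.67), which lies within this range. Other transcripts set the 2-week library apart. Dbp and Nr1d1 were 49.4 (28.7 to 93.3) and 101 (34.1 to 490) times their healthy level in ECs at 2 weeks, the latter on 3 healthy UMIs. At 12 against 2 weeks they were at 0.0104 and 0.0668. Both were also higher at 2 weeks in FBs, mural cells and blood cells, and the part of this difference in the 2-week ratios was not tested.

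**Figure D2:**
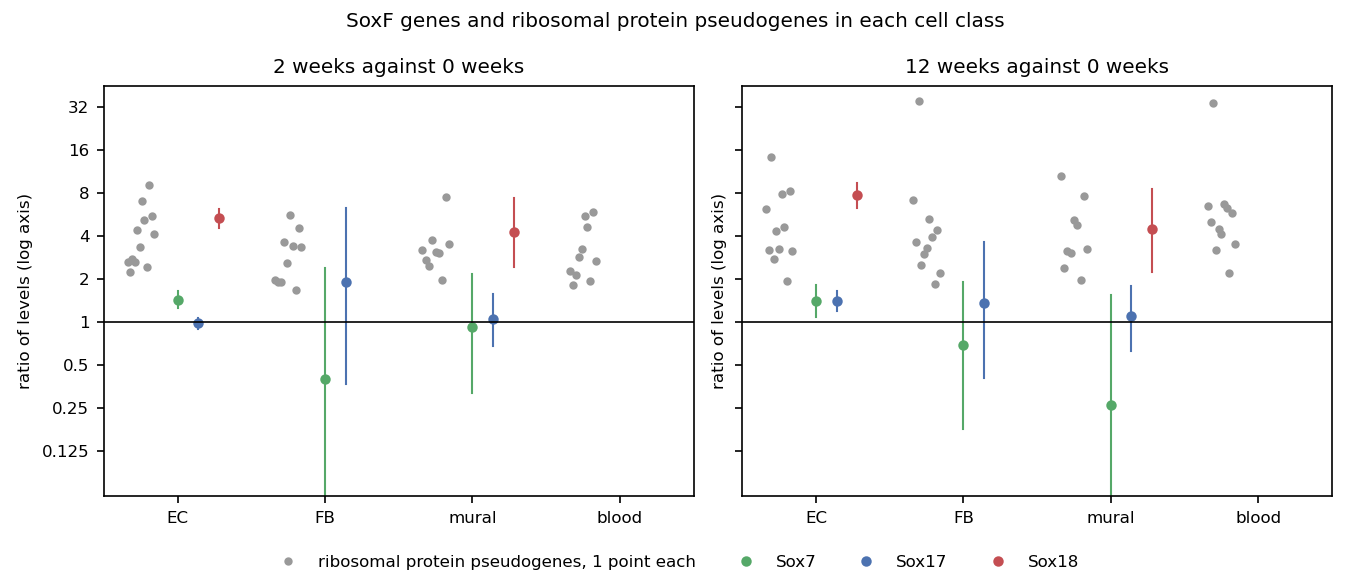
Ratios of levels against the healthy library (log axis) for Sox7, Sox17 and Sox18 (colored points with 95% counting intervals, only where both libraries together held 20 UMIs or more) and for each ribosomal protein pseudogene (gray points) in 4 cell classes. The pseudogenes lie above 1 in all 4 classes, while Sox7 and Sox17 lie at 1.44 and 0.980 in ECs at 2 weeks.

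The Sox18 counts of ECs were next split by subtype, as a description of where the higher level lay. ECs were put into subtypes by 9 further marker lists that hold none of the 6 factors, and the 7 groups with 20 or more cells at both 0 and 2 weeks were compared. In arterial ECs, which line the larger vessels on the inflow side, Sox18 stood at 78.9, 478 and 624 CPM at 0, 2 and 12 weeks. In arteriolar capillary ECs (Cxcl12, Btnl9 and Rbp7) it stood at 57.4, 404 and 556 CPM. In capillary ECs (Car4, Aplnr, Rgcc and others) it stood at 52.2, 289 and 341 CPM. These 3 subtypes all had the healthy library lowest and the 12-week library highest.

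The 2-week ratios of Sox18 were 6.06 (4.50 to 8.32) in arterial, 7.02 (4.39 to 11.9) in arteriolar capillary and 5.55 (3.41 to 9.57) in capillary ECs. They were 5.34 (3.85 to 7.53) in ECs that passed the interferon-response list (called interferon ECs), 3.52 (2.27 to 5.64) in activated ECs (Apln, Mest, Esm1 and others) and 2.29 (0.886 to 7.53) in ECs that passed no subtype list. Venous ECs gave 24.3 (4.07 to 991), on 1 healthy UMI, and when the subtypes were gated on cells thinned to 1000 UMIs this ratio became 2.88 and that of activated ECs 9.31. All 7 ratios were above 1.5 and in 6 of them the counting interval lay above 1, where the ratio over all ECs was 5.32 by selection. The intervals of all 7 subtypes overlapped one another. The ratios were not compared directly between subtypes, so the subtypes are not ranked by them.

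At 12 weeks 5 subtypes held 20 cells, and the ratios to the healthy heart were 7.90 (5.50 to 11.4) in arterial, 9.68 (5.55 to 17.5) in arteriolar capillary, 6.53 in capillary, 8.83 (5.46 to 14.1) in interferon and 4.36 in ungated ECs. Each of these 5 intervals lay above 1. Between 12 and 2 weeks the same 5 ratios ran from 1.18 to 1.90, all above 1, with 2 of them at 1.5 or more. Subtypes with too few cells gave levels and no ratio. Endocardial ECs, the inner lining of the chambers, stood at 67.6, 235 and 185 CPM from 46, 13 and 11 cells, and lymphatic ECs at 124, 264 and 582 CPM from 28, 11 and 4 cells.

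The order of the subtypes by Sox18 was only partly resolved by these counts. Of the 10 healthy subtypes, lymphatic ECs had the highest level and venous ECs the lowest (8.70 CPM), and no neighbors in that order differed beyond counting error. At 2 weeks arterial ECs were highest, followed by arteriolar capillary ECs at a ratio of 1.19 whose interval included 1. Arteriolar capillary ECs were 1.37 times interferon ECs, with an interval above 1, and the 5 lower subtypes, from 294 down to 201 CPM, did not differ from their neighbors beyond counting error. At 12 weeks arterial and arteriolar capillary ECs were again highest, no neighbors differed beyond counting error, and arterial ECs exceeded only capillary ECs (1.83 times, 1.20 to 2.85) of the other 4 subtypes beyond it.

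**Figure D3:**
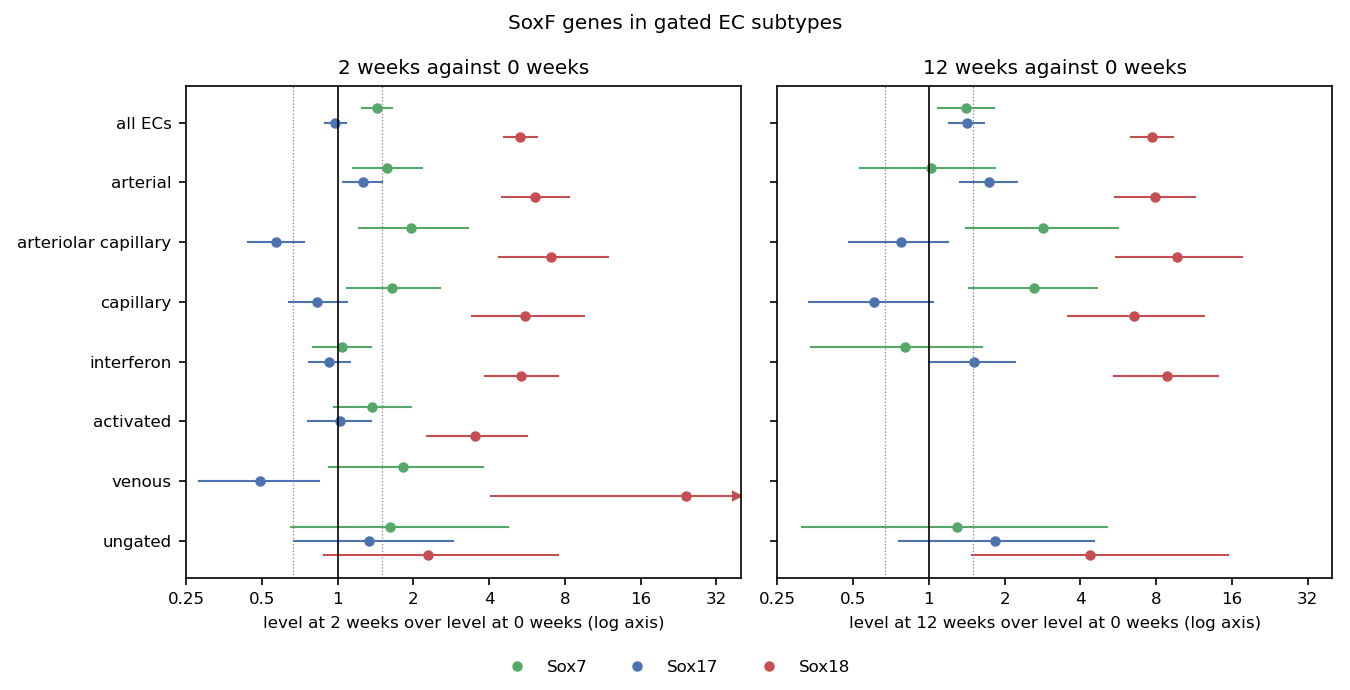
Ratios of Sox7, Sox17 and Sox18 levels to the healthy library (log axis) in all ECs and in each EC subtype with 20 or more cells in both phases, with 95% counting intervals. The solid line marks a ratio of 1, the dotted lines mark 1.5 in each direction, and an arrow marks an interval that runs past the axis. Sox18 lies to the right of 1.5 in all 7 subtypes at 2 weeks and all 5 at 12 weeks, and Sox17 lies on both sides of 1.

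Sox7 leaned the same way as Sox18, by less. At 2 weeks its ratio was above 1 in 7 of 7 subtypes and at least 1.5 in 5 of them, and 3 intervals lay above 1, those of arteriolar capillary (1.96, 1.21 to 3.29), capillary (1.65, 1.09 to 2.56) and arterial ECs (1.57, 1.15 to 2.16). Interferon ECs were at 1.04 (0.798 to 1.36). At 12 weeks Sox7 was 2.84 times (1.40 to 5.62) the healthy level in arteriolar capillary and 2.61 times (1.44 to 4.65) in capillary ECs, and 1.02 times (0.532 to 1.84) in arterial ECs. The arterial value rests on 14 UMIs at 12 weeks, and its interval includes the 2-week ratio of 1.57.

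Sox17, which marks and maintains arterial identity, had ratios on both sides of 1 in the gated subtypes, which the clusters described below did not show between arterial, venous and arteriolar capillary ECs at 2 weeks. In arterial ECs it stood at 356, 448 and 616 CPM, or 1.26 times (1.05 to 1.501) and 1.73 times (1.32 to 2.24) the healthy level. In arteriolar capillary ECs it stood at 399, 227 and 309 CPM, with a 2-week ratio of 0.568 (0.439 to 0.734), and in venous ECs the 2-week ratio was 0.493 (0.282 to 0.847) on 37 and 24 UMIs. Capillary ECs gave 0.832 (0.639 to 1.09) and 0.606 (0.333 to 1.03), and interferon ECs 0.927 (0.766 to 1.12) and 1.51 (1.01 to 2.20). At 2 weeks 3 subtypes were above 1 and 4 below, where the ratio over all ECs was 0.980.

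The order of the subtypes by Sox17 changed with this. In the healthy heart arteriolar capillary ECs were highest, with arterial ECs next at a ratio of 1.12 (0.898 to 1.39), whereas at 2 weeks arterial ECs led and were 1.60 times (1.33 to 1.92) the next subtype. Lymphatic ECs held 0 Sox17 UMIs in all 3 libraries. Against that 0 the lowest of the other healthy subtypes, endocardial ECs, stood at 111 CPM.

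Summed over the 3 paralogs, SoxF transcripts stood at 456, 760 and 1024 CPM in ECs, or 1.67 and 2.25 times the healthy level. The sum was above its healthy level in 7 of 7 subtypes at 2 weeks, by ratios from 1.30 to 2.02, and 6 of the 7 intervals lay above 1. It includes the Sox18 counts that led to the choice of these genes. The sum and the shares of it are therefore a description and carry no weight as evidence. Sox18 made up 13.3% of the SoxF UMIs of healthy ECs, 42.4% at 2 weeks and 45.6% at 12 weeks. The share of Sox17 went from 62.3% to 36.6% and 39.1%, and that of Sox7 from 24.4% to 21.0% and 15.3%. These are shares of 3' UMIs, which depend on how well each transcript's end is caught, so the genes cannot be ranked by them. A change in 1 share also moves the others, and the Sox17 share was lower at 2 weeks at a Sox17 level ratio of 0.980. In healthy lymphatic ECs 12 of 14 SoxF UMIs were Sox18.

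**Figure D4:**
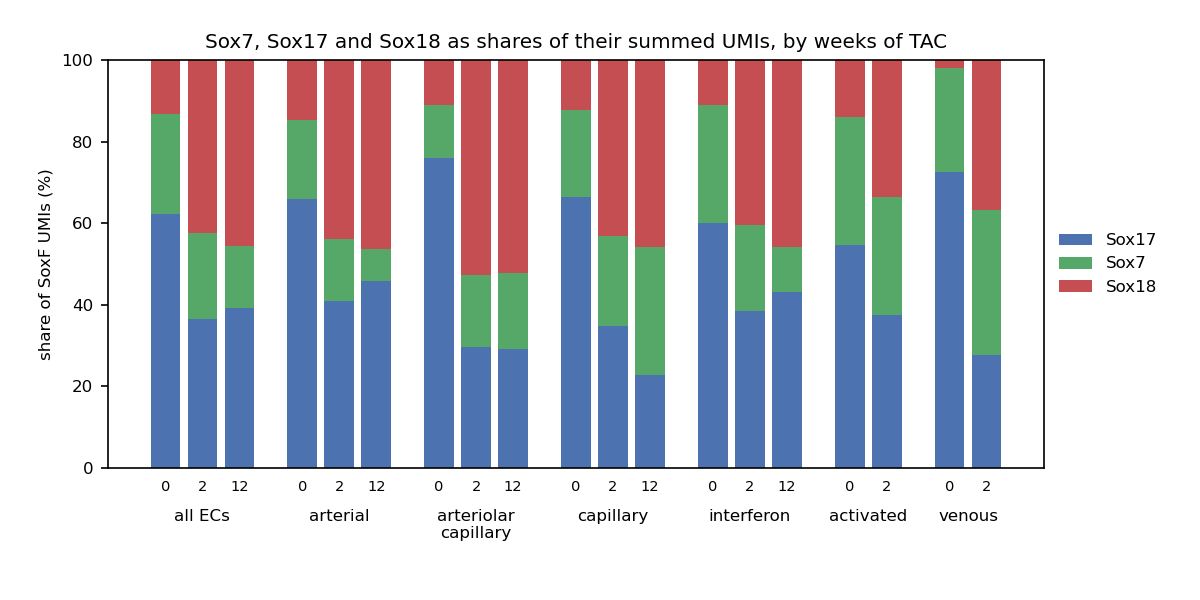
Sox17, Sox7 and Sox18 as shares of their summed UMIs (percent, stacked to 100) in all ECs and in EC subtypes at 0, 2 and 12 weeks of TAC, as written under each bar. In all ECs the Sox18 share grows from 13.3% to 42.4% and 45.6%. Subtypes are drawn only for phases with 20 or more cells.

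The gated subtypes depend on lists that overlap, since 1895 of 3192 ECs (59.4%) passed more than 1 of them and were placed by the order of the lists. The interferon list placed 246, 274 and 32 ECs, but only 64 ECs formed a cluster led by interferon genes such as Ifit3 and Isg15, and this list was the most frequent gate (33.7%) in a cluster of 664 ECs led by Pgf, Apln and Mest, so that interferon ECs are those that passed the list and not a cluster of their own. As a second division, ECs were clustered without the 6 factors among the features. In 8 of 8 clusters that could be compared the same Sox18 counts were at least 1.5-fold higher at 2 weeks, by ratios from 3.01 to 7.92. At 12 weeks it was so in 5 of 5, from 3.87 to 8.85. In the same clusters Sox17 was above its healthy level in 4 of 8 at 2 weeks, from 0.643 to 2.73, and Sox7 in 6 of 8, from 0.579 to 2.01. The Sox17 ratio at 2 weeks was 1.08 (0.866 to 1.34) in the cluster with Sema3g and Gja4, of which 81.7% was gated as arterial, 1.12 (0.846 to 1.48) in the cluster with Selp, whose most frequent gate was venous (26.6%), and 0.921 (0.771 to 1.10) in the cluster with Cxcl12, whose most frequent gate was arteriolar capillary (30.9%). The cluster whose most frequent gate was capillary gave 2.73 (1.43 to 5.86), on 10 healthy UMIs, where the gated capillary ECs gave 0.832. At 12 weeks the Sema3g and Gja4 cluster gave 1.63 (1.21 to 2.18), beside 1.73 in gated arterial ECs.

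Outside ECs, the SoxF genes were low in FBs and blood cells and intermediate in mural cells. In the healthy heart the EC level was 12.05 times (8.61 to 17.3) the FB level for Sox7, 48.6 times (32.5 to 76.3) for Sox17, 31.1 times (15.5 to 73.2) for Sox18 and 31.4 times (18.1 to 59.7) for Erg. At 2 weeks Sox18 was at 0 UMIs in the 99 FBs, and against a floor of 3 UMIs its EC level was at least 28.9 times higher. In FBs Sox18 had 8, 0 and 2 UMIs in 1247, 99 and 193 cells, and in blood cells 4, 3 and 1 UMIs, too few to show a change at this depth.

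Mural cells, the pericytes and smooth muscle cells around vessels, held Sox18 at 24.4, 105 and 109 CPM on 36, 23 and 14 UMIs. This was 4.29 times (2.43 to 7.44) the healthy level at 2 weeks and 4.48 times (2.23 to 8.51) at 12 weeks, close to the ratio in ECs. Sox17 in mural cells stood at 121, 127 and 133 CPM, a 2-week ratio of 1.05 (0.679 to 1.57). Sox7 stood at 29.8, 27.3 and 7.80 CPM there, on 44, 6 and 1 UMIs. The 11 endothelial markers summed to 2153, 2427 and 1731 CPM in mural cells, compared with 558, 571 and 577 CPM in FBs and 148, 195 and 233 CPM in blood cells. Mural cells thus carried more endothelial transcripts than FBs or blood cells in every library, and the part of these in their Sox18 was not tested.

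Klf2 and Klf4 were lower in the ECs of both overloaded hearts, by less than the 1.5-fold used for counting. Klf2 stood at 4488, 3444 and 3426 CPM in ECs at 0, 2 and 12 weeks, from 14601, 11664 and 1660 UMIs. The ratios to the healthy heart were 0.767 (0.749 to 0.786) and 0.763 (0.725 to 0.803), and the 2 TAC libraries did not differ beyond counting error (0.995). Klf4 stood at 1555, 1120 and 1238 CPM from 5057, 3791 and 600 UMIs, with ratios of 0.720 (0.690 to 0.751) and 0.797 (0.731 to 0.867). The healthy library was the high one for both genes.

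Klf2 lies on chromosome 8 (72319033 to 72321656, plus strand) and Klf4 on chromosome 4 (55527143 to 55532466, minus strand) of GRCm38. Since these 2 factors moved together, the bases before their start sites are shown, from the RefSeq annotation of GRCm38.p6, in which 3 of the 6 factors had an entry. The windows are chr8:72318812-72319032 on the plus strand for Klf2 and chr4:55532476-55532725 on the minus strand for Klf4, of 221 and 250 bases, written 5′ to 3′ along the gene. Capitals mark matches to the GC box GGGCGG on either strand and, in Klf2, to the binding motif of MEF2 factors, which act upstream of Klf2 in ECs.
Klf2: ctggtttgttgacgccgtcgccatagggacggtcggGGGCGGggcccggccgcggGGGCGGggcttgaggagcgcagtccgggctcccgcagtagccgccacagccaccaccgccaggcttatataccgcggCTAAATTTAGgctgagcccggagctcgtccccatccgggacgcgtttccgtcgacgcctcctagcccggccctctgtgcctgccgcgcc
Klf4: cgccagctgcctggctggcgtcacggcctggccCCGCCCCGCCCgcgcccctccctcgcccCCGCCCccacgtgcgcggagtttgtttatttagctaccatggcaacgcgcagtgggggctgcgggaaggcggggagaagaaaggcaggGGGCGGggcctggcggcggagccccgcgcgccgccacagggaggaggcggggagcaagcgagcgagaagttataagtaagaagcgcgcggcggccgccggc

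Both windows were rich in G and C, at 71.5% and 74% of bases. Klf2 held 2 GC boxes and Klf4 held 4, of which 2 overlap by 1 base. A GC box was found in 28.7% of all 32851 upstream windows cut to 221 bases and in 32.7% of those of 250 bases, and 4.09% of the latter held 4 or more. The MEF2 match in Klf2 had a counterpart in 2.61% of windows of its length and none in the Klf4 window. Neither window held CACCC, a core of Klf binding that 48.0% and 52.0% of windows of these lengths held, nor ACAAT, a core of Sox binding that 25.7% and 27.7% held. The ETS core GGAAG was matched once in Klf4, as in 64.1% of windows of its length, and not in Klf2 (58.8%). These are matches of letters only, on both strands.

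The lower Klf2 and Klf4 at 2 weeks were seen in every gated EC subtype compared. Klf2 was below its healthy level in 7 of 7, by ratios from 0.627 to 0.823, and Klf4 in 7 of 7, from 0.588 to 0.816, each with its counting interval below 1. Healthy capillary ECs had the highest Klf2 of all (5636 CPM) and arterial ECs the highest Klf4 (2028 CPM), and cycling ECs had the lowest of both (3004 and 966 CPM). In clusters made without the factors the picture was less uniform, since 1 of 8 clusters was above 1 for Klf2 and 2 of 8 for Klf4 at 2 weeks. The cluster whose most frequent gate was capillary gave 1.13 (0.995 to 1.28) for Klf2 and 1.33 (1.06 to 1.69) for Klf4. The gated capillary ECs gave 0.627 and 0.622. Of the 8 cluster intervals, 5 lay below 1 and 0 above for Klf2, and 6 below and 1 above for Klf4.

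At 12 weeks the gated subtypes diverged. Klf2 was lowest against the healthy heart in capillary ECs, where it stood at 5636, 3533 and 2130 CPM and the ratio was 0.378. In interferon ECs it stood at 4370, 3576 and 4565 CPM and the ratio was 1.04. The clusters also differed in Klf2 at 12 weeks, but 5 of 5 intervals lay below 1. The cluster whose most frequent gate was capillary gave 0.4997 (0.378 to 0.653). The cluster led by Pgf, Apln and Mest, whose most frequent gate was interferon, gave 0.873 (0.772 to 0.984). Klf4 was below its healthy level in 4 of 5 subtypes, at 0.520 (0.402 to 0.664) in arteriolar capillary, 0.605 (0.484 to 0.750) in capillary, 0.662 (0.452 to 0.955) in ungated and 0.759 (0.651 to 0.882) in arterial ECs. In interferon ECs it was 1.24 times (1.02 to 1.501) the healthy level. The median depth at 12 weeks was 1783 UMIs in interferon and 1844 in arterial ECs. It was 1330 in arteriolar capillary, 1107.5 in capillary and 670 in ungated ECs, and the part of depth in these ratios was not tested.

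**Figure D5:**
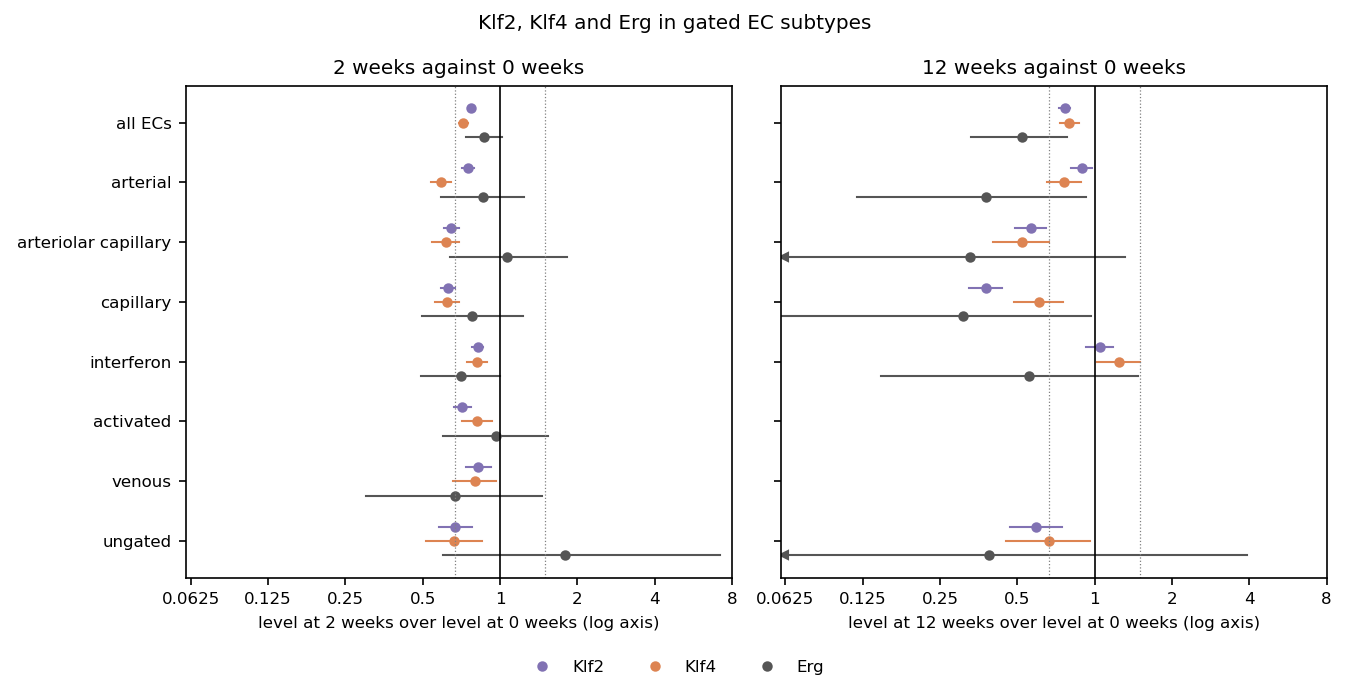
Ratios of Klf2, Klf4 and Erg levels to the healthy library (log axis) in all ECs and in each EC subtype with 20 or more cells in both phases, with 95% counting intervals and arrows where these run past the axis. At 2 weeks the Klf2 and Klf4 points of all 7 subtypes lie below 1. At 12 weeks those of interferon ECs lie at 1.04 and 1.24.

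The Klf ratios varied with how deeply the cells had been read. At 2 weeks Klf2 was 0.645 (0.616 to 0.674) of the healthy level in ECs of 1000 to under 2000 UMIs, 0.738 (0.709 to 0.768) in those of 2000 to under 4000 and 0.919 (0.876 to 0.964) in those of 4000 or more. At 12 weeks it was 0.530 (0.484 to 0.579) in the first range and 1.10 (1.01 to 1.19) in the next, and Klf4 went from 0.590 (0.507 to 0.684) to 1.07 (0.934 to 1.23). With only ECs of 2000 or more UMIs, the 12-week ratios were 1.03 for Klf2 and 0.956 for Klf4, so that the lower level at 12 weeks was seen in the shallower cells and not in these. The shares of ECs with a UMI, thinned to 1000, were 91.2%, 85.2% and 81.1% for Klf2 and 68.0%, 57.1% and 53.7% for Klf4.

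Klf2 and Klf4 were abundant in the other classes too. The EC level of Klf2 was 3.02, 5.10 and 2.51 times the FB level at 0, 2 and 12 weeks. That of Klf4 was 0.914 (0.881 to 0.948), 0.943 (0.841 to 1.06) and 1.15 (1.03 to 1.28) times the FB level, so that FBs were the higher in the healthy heart and ECs at 12 weeks. Klf2 in FBs stood at 1485, 675 and 1366 CPM and in blood cells at 907, 354 and 1001 CPM, both lowest at 2 weeks, with 2-week ratios of 0.455 (0.390 to 0.527) and 0.390 (0.328 to 0.461). In mural cells it stood at 2091, 1940 and 1614 CPM. Klf4 was below its healthy level in each of these classes at both times, with 2-week ratios of 0.698 (0.622 to 0.781) in FBs, 0.719 (0.624 to 0.825) in mural cells and 0.457 (0.371 to 0.558) in blood cells. The lower Klf4 was therefore seen in all 4 main classes. The 12-week ratios of Klf2 were 0.920 (0.855 to 0.988) in FBs and 1.10 (0.988 to 1.23) in blood cells, beside 0.763 in all ECs and 1.03 in ECs of 2000 or more UMIs. The median depth at 12 weeks was 2453 UMIs in FBs, 1440 in blood cells and 1315 in ECs. The part of depth in the differences between these classes was not tested.

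Many immediate early genes, which cell dissociation also induces, were measured beside them. In ECs 15 such genes summed to 30203, 25642 and 22973 CPM, with 1 at least 1.5-fold higher at 2 weeks (Ier3, 1.64) and 1 lower (Atf3, 0.557), and 0 higher and 6 lower at 12 weeks. In ECs the summed level thus moved with phase in the direction of Klf2 and Klf4, as it did in blood cells (16060, 13756 and 12272 CPM). In mural cells it was 26482, 27046 and 25682 CPM and in FBs 21007, 19370 and 22633 CPM, so that in mural cells at 2 weeks and FBs at 12 weeks it was not lower where Klf4 was. Its part in the Klf ratios of ECs was not tested. Across the 22 EC subtype and phase groups of 20 or more cells, the 3 genes most like Klf2 were Jun (Pearson r = 0.843), Klf4 (0.822) and Cdkn1a (0.803), and those most like Klf4 were Junb (0.846), Klf2 (0.822) and Fos (0.810). These groups share 3 libraries and their depth, so the correlations of log2(CPM + 1) are descriptions over 6733 genes.

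Erg, on chromosome 16 (95359169 to 95586593, minus strand, GRCm38), was near its healthy level at 2 weeks and lower at 12 weeks. It stood at 99.3 CPM (323 UMIs), 86.2 CPM (292 UMIs) and 51.6 CPM (33.4 to 76.2, 25 UMIs) in ECs. The 2-week ratio of 0.868 (0.739 to 1.02) included 1, and the 12-week ratio was 0.520 (0.331 to 0.781), on 25 UMIs in the smallest library. In the subtypes no 2-week interval excluded 1, with ratios from 0.665 to 1.79, and at 12 weeks 5 of 5 ratios were below 1, from 0.306 to 0.554, with 2 intervals below 1. In the clusters 1 of 5 ratios at 12 weeks was above 1, the range was 0.391 to 1.16, and 0 intervals lay below 1. The 12-week ratio was 0.744 (0.321 to 1.54) in ECs of 1000 to under 2000 UMIs. It was 0.592 (0.264 to 1.16) in those of 2000 to under 4000, and each rests on 9 UMIs at 12 weeks. Thinned to 1000 UMIs, Erg was seen in 8.76%, 8.44% and 6.97% of ECs, a smaller difference than that in level.

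Erg in mural cells stood at 49.4, 9.09 and 15.6 CPM, on 73, 2 and 2 UMIs, and the 2-week ratio was 0.184 (0.0219 to 0.689). Both TAC values lie under the floor of 3 UMIs, which is 13.6 CPM at 2 weeks and 23.4 CPM at 12 weeks in these cells. Sox18 in the same cells was higher at 2 weeks, on 23 UMIs. Mural cells carried endothelial transcripts, and the part of these in either value was not tested. In FBs and blood cells Erg was at 4.78 CPM or less in each library.

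Genes linked to these factors lay on both sides of their healthy levels. Their lists were written with earlier results of these data known, and they are read by their counts beside all genes, of which 13.2% were higher and 13.7% lower at 2 weeks, and 22.2% and 16.5% at 12 weeks. Of 11 genes linked to SoxF factors, 2 were at least 1.5-fold higher in ECs at 2 weeks, namely Robo4 (1.85, 1.59 to 2.16), a guidance receptor that stabilizes vessels, and Cdh5 (1.55, 1.47 to 1.62), the cadherin of endothelial junctions. Another 2 were lower, namely the lymphatic factor Prox1 (0.325, 0.188 to 0.541), which lymphatic ECs carry, and the tight junction claudin Cldn5 (0.504, 0.476 to 0.533). Lymphatic ECs made up 2.53% of healthy ECs and 0.619% at 2 weeks, and their part in the Prox1 ratio was not tested. Counts of 2 in 11 are near the shares of all genes, 13.2% and 13.7%. The median ratio of the list was 1.198, beside 1.01 for all genes, and 3 of its genes had also been used to gate the EC class. Of its other genes, Prox1, Gja4, Nr2f2 and Vcam1 were on the lists that gated EC subtypes. At 12 weeks Cldn5 was at 0.982 (0.893 to 1.08), so that the 2-week library alone was low.

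The genes that Klf2 and Klf4 induce in cultured endothelium were not lower with them. Of 5 such genes, 0 passed 1.5-fold at 2 weeks (13.2% of all genes were higher and 13.7% lower), with Thbd (thrombomodulin, which restrains clotting) at 1.46 (1.33 to 1.61), Tek (the angiopoietin receptor) at 1.40 (1.25 to 1.58), S1pr1 at 1.12 (1.01 to 1.24) and Nos3 (endothelial nitric oxide synthase) at 1.08 (0.932 to 1.25). At 12 weeks Thbd was at 1.86 (1.58 to 2.18) and Tek at 1.59 (1.28 to 1.97). Of the genes they repress, 2 of 5 were lower at 2 weeks (13.7% of all genes), among them the chemokine Ccl2 (0.118, 0.0490 to 0.247, on 8 UMIs at 2 weeks), while at 12 weeks 2 of 4 were higher (22.2% of all genes), the vasoconstrictor Edn1 (2.51, 2.02 to 3.10) and the adhesion molecule Vcam1 (1.92, 1.58 to 2.33).

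Of 10 genes linked to Erg, 3 were higher at 2 weeks (Robo4, Cdh5 and the frizzled receptor Fzd4 at 1.56, 1.33 to 1.83) and 1 was lower (Cldn5), and at 12 weeks, when Erg itself was lower, 4 were higher and 0 lower. Of all genes 13.2% were higher and 13.7% lower at 2 weeks, and 22.2% and 16.5% at 12 weeks. The list's median ratio was 1.38 at 2 weeks and 1.44 at 12 weeks, and 4 of its genes had been used to gate the EC class. Vwf, also of this list, was on the list that gated venous ECs.

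Most other factors of ECs were within 1.5-fold of their healthy level. Among 22 of them, 3 were higher at 2 weeks and 0 lower, near the 13.2% of all genes that were higher, with the hypoxia factor Epas1 at 1.74 (1.62 to 1.87), the inhibitory Smad6 at 1.74 (1.36 to 2.23), and Ets2, a neighbor of Erg on chromosome 16, at 1.53. The lowest were Meox2 (0.687, 0.612 to 0.770) and Mef2a (0.728, 0.651 to 0.813), the latter a member of the MEF2 group named above. No other Sox gene was at least 1.5-fold higher at 2 weeks among the 4 with enough UMIs, with Sox13 at 1.25 (0.976 to 1.61) and Sox4 at 0.778 (0.698 to 0.868), and Sox11 was lower.

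Among 8 other Klf genes, Klf11 was higher (1.55, 1.22 to 1.97) and Klf6 was lower (0.528, 0.493 to 0.564), followed by Klf3 (0.717, 0.634 to 0.810). Klf6, a factor induced by injury, was at 749, 395 and 435 CPM in ECs, a larger difference from the healthy heart than that of Klf2 or Klf4. Over all lists together, 8 genes were higher and 7 lower of 74 at 2 weeks, and 13 were higher and 11 lower at 12 weeks, beside 13.2% and 13.7%, and 22.2% and 16.5%, of all genes. When each ratio was divided by the median ratio of all genes, the 12-week counts became 10 higher and 14 lower, and those of all genes went from 2077 higher and 1546 lower to 1695 and 1863.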

How the data were processed

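Non-cardiomyocytes of mouse hearts were measured at 0, 2 and 12 weeks of TAC by 3' droplet sequencing, with 1 library per phase. The authors deposited UMI counts per gene and cell, without normalization, which the submitters' processing notes credit to Cell Ranger 2.0.0 and mm10. The deposited libraries held 3900, 2239 and 802 cells with 12309881, 4472377 and 1723863 UMIs, and shared 5, 1 and 3 barcodes pairwise. The 6 genes and all lists were chosen with earlier results of these data known.

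Cells with at least 200 genes were kept. A cell was given the class whose markers summed to at least 3 UMIs from 2 genes and to 2 times the next class. Cells short of 2 times (126, 35 and 11) were set aside as mixed, no doublet caller was run, and 209 of 6915 cells (3.02%) lay within 1.5 to 3 times. EC subtypes needed 3 UMIs from 2 genes, taken in the order of the lists. Levels carry exact Poisson intervals and ratios conditional binomial intervals (95%), for genes with 20 or more UMIs over both phases (scipy 1.17.1, numpy 2.4.6 and pandas 2.3.3 under Python 3.11.15; figures by matplotlib 3.10.9). Shares of cells were also taken after thinning to 1000 UMIs. ECs were clustered in Seurat 5.3.0 (R 4.3.3) with 2000 features, 30 dimensions, k = 20 and resolution 0.8. The code was tested on simulated data.

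The text names the 6 factors, the 2 highest and 2 lowest genes of each list with 50 or more UMIs at 2 weeks, and the 3 genes most like a factor among those with 100 or more UMIs. Sox11, Ets2, Dbp, Nr1d1 and the ribosomal protein pseudogenes were added after their values were seen. Gene positions are those of GENCODE on GRCm38, and 6 of 6 Ensembl identifiers matched. The 18 alternatives concerned gates, filters, depth, scaling and subtype definitions, and 2 of them (ECs on more than 1 subtype list left out, and ECs of 2000 or more UMIs only) were chosen after seeing the data.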

Additional observations from a re-analysis of the deposited data

Results flagged for a closer look

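Several factors went in opposite directions in different groups of cells under the same contrast, with counting intervals on opposite sides of 1. With 1 library per phase, these differences were not tested.

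Sox17 at 2 weeks against 0 weeks was 1.26 in arterial ECs but 0.493 in venous and 0.568 in arteriolar capillary ECs. These are gated subtypes, and 59.4% of ECs passed more than 1 list. In clusters made without the factors the contrast was not seen, with 1.08 (0.866 to 1.34) in the cluster mostly gated as arterial, 1.12 (0.846 to 1.48) in that with venous as its most frequent gate and 0.921 (0.771 to 1.10) in that with arteriolar capillary. Klf4 at 12 weeks against 0 weeks was 1.24 in interferon ECs but 0.759 in arterial, 0.520 in arteriolar capillary, 0.605 in capillary and 0.662 in ungated ECs. In the clusters 0 of 5 Klf4 intervals at 12 weeks lay above 1 and 3 lay below. Depth also differed between these subtypes, as given above. Klf2 at 12 against 2 weeks was 1.18 in arterial and 1.28 in interferon ECs but 0.603 in capillary ECs.

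Between cell classes, Klf2 at 12 against 2 weeks was 2.02 in FBs and 2.83 in blood cells but 0.832 in mural cells, and Klf4 over the same contrast was 1.11 in ECs but 0.771 in mural cells. The 2-week values of FBs, mural cells and blood cells rest on 99, 68 and 196 cells.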

How the results depend on the processing

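The ratios of the factors over all ECs were recomputed under 11 of the 18 alternatives. Under these, Klf2 at 12 weeks crossed 1 in ECs of 2000 or more UMIs (1.03) and Erg at 2 weeks with a mean over cells (1.05). Sox17 at 2 weeks did so without the dominance factor (1.02) and in ECs of 2000 or more UMIs (1.05). None of these ratios had passed 1.5-fold. The other EC ratios stayed on their side of 1. The ratio of Sox18 in ECs lay between 5.00 and 5.50 at 2 weeks and between 6.49 and 8.13 at 12 weeks, Sox7 at 2 weeks from 1.41 to 1.60 and Sox17 from 0.839, with cells thinned to 1000 UMIs, to 1.05. Sox18 was at least 1.5-fold higher in every subtype compared, which were 3 when ECs on more than 1 subtype list were left out (7 as reported) and 6 to 8 otherwise. Gated on thinned cells, its ratio was 2.88 in venous (24.3 as reported) and 9.31 in activated ECs (3.52). With a 2-fold limit, list genes numbered 0 higher and 4 lower of 74 at 2 weeks, and 4 higher and 5 lower at 12 weeks. Beside them stood 436 and 624 of 10383 genes, and 844 and 806 of 9373 genes. With 1 UMI as the minimum, 12 of 82 list genes were lower at 2 weeks and 20 were lower at 12 weeks, beside 3805 and 4514 of all genes. How many of all genes met this minimum was not recorded, so no share can be set beside these counts. Under any of these settings at most 10 list genes were higher at 2 weeks and 15 at 12 weeks. No paired analysis was possible because each phase had 1 library, and for the same reason no replicate could be left out. Depth limits Erg most, at 25 UMIs in the 12-week ECs.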

Other observations

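Sox18 was seen in shares of ECs with and without its paralogs that overlapped within counting error, whereas Klf4 was seen more often in ECs with Klf2. Among ECs thinned to 1000 UMIs at 2 weeks, Sox18 was seen in 27.6% (21.3 to 34.6) of those with a Sox7 UMI and 24.3% (21.8 to 26.9) of those without, and in 25.8% (20.5 to 31.7) of those with a Sox17 UMI and 24.5% (22.0 to 27.2) of those without. Klf4 was seen in 60.8% (57.9 to 63.7) of ECs with a Klf2 UMI and 35.2% (28.5 to 42.4) of those without at 2 weeks, and in 70.1% (67.2 to 72.9) and 46.4% (36.2 to 56.8) in the healthy heart. The intervals cover counting error only, and cells of 1 library are not replicates.

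The neighbors of Sox18 on chromosome 2, none of which overlaps it, did not share its ratio in ECs at 2 weeks. Tcea2, 8670 bases away, was at 1.14 (0.469 to 2.80), Prpf6 at 0.883 (0.644 to 1.21), Rgs19 at 0.883 (0.605 to 1.29) and Samd10 at 0.538 (0.259 to 1.08).

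Over 14 cell class and phase groups and 10007 genes, the genes most like Sox18 were Fzd6 (Pearson r = 0.981), Car7 (0.957) and Ssu2 (0.949), those most like Sox17 were the junction gene Esam (0.991), Cdh13 (0.990) and Nos3 (0.985), those most like Sox7 were Clic5 (0.9696), Ushbp1 (0.969) and Adgrl4 (0.966), and those most like Erg were Myzap (0.986), Clec1a (0.97003) and Bcl6b (0.964). Esam is 1 of the genes that gated ECs. Over the 22 EC subtype and phase groups, those most like Sox18 were Nme2 (0.881), Gm6133 (0.843) and Gm10036 (0.831), which were also higher at 2 weeks in blood cells, at 2.52, 2.57 and 2.86 times the healthy level. Those most like Sox17 there were Tspan7 (0.954), Pdgfd (0.938) and Wt1 (0.936), and r between Sox17 and Sox18 was 0.113. The groups share libraries and depth, and the correlations are descriptions only.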
